A study of Mus musculus with 6 samples.

Results

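The genes described are 8 MHC class II genes of the mouse, followed through every kind of cell of the mitral valve. They were taken by symbol from the 31053 genes of the deposited tables, and each of the 8 symbols matched 1 gene. The cells came from K/B.g7 mice, whose valves the labels call inflamed, and from B.g7 mice, labelled as controls, at 3, 8 and 25 weeks of age. Both genotypes carry the g7 haplotype of the MHC, the class II haplotype of the NOD strain, and K/B.g7 mice also carry the KRN T cell receptor transgene, which recognises a self peptide on the g7 class II molecule and drives arthritis and valve inflammation through autoantibodies. After digestion of the valve and lysis of red cells, living single cells were sorted for droplet sequencing, which gave 1 library per genotype and age. The number of mice behind a library, their sex and whether the g7 haplotype was on 1 or both chromosomes are unstated in the labels. P-values therefore measure at most the spread between these 6 libraries.

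MHC class II molecules are cell surface proteins made of an alpha and a beta chain that show peptides from engulfed protein to CD4+ T cells. They are made all the time by professional antigen-presenting cells, which are dendritic cells, B cells and many macrophages, and interferon gamma can switch them on in endothelium and fibroblasts. H2-Aa and H2-Ab1 encode the alpha and beta chain of I-A, the class II molecule that KRN T cells recognise. H2-Eb1 encodes the beta chain of I-E, whose alpha chain partner is not made in C57BL/6 or NOD mice. Cd74 is the invariant chain, which guides new class II molecules to the endosome and blocks their groove. Ctss, the lysosomal protease cathepsin S, trims the invariant chain, and H2-DMa with H2-DMb1 forms the H2-DM exchanger that swaps the last piece of it for antigenic peptide. Ciita is the transactivator that switches the set on. It binds no DNA itself and is held at promoters by factors on the conserved X and Y boxes.

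Shown are promoters of H2-Aa, H2-Eb1, H2-DMb1 and Ctss, whose transcripts had their peak at the same age. They are shown for the boxes through which the set is known to be switched on. Given are the last 110 bases before the start site, 5′ to 3′ on the gene's strand, from RefSeq (GRCm38.p6). Capitals mark the X box core AACNGATG, the cyclic AMP response element TGACGTCA, which reads alike on both strands and in H2-Aa stands in the X2 position, and the Y box GATTGG. In Ctss they mark GAAANNGAA, letters found in interferon response elements.
H2-Aa, chr17:34287824-34287933, minus strand: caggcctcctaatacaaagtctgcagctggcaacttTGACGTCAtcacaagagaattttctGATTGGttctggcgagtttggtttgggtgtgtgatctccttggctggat
H2-Eb1, chr17:34305757-34305866, plus strand: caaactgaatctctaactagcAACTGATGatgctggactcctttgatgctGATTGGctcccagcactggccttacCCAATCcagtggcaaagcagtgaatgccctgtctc
H2-DMb1, chr17:34153081-34153190, plus strand: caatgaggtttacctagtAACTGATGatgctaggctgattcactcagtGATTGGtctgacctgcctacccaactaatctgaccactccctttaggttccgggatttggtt
Ctss, chr3:95526676-95526785, plus strand: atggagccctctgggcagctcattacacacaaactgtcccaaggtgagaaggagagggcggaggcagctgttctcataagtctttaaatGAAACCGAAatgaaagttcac
In H2-Eb1 the X box core starts at position -89 and the Y box at -60 from the start site, and in H2-DMb1 they start at -92 and -62. H2-Eb1 holds a Y box on the other strand as well, at -35. H2-Aa has its TGACGTCA at -74 and its Y box at -49, and Ctss has an X box core at -207, outside the stretch shown. None of these matches overlap. Searched on both strands of 32851 promoters of 300 bases, AACNGATG was in 762 (2.32%), TGACGTCA in 588 (1.79%), GATTGG in 5292 (16.1%) and GAAANNGAA in 2812 (8.56%). A match of letters is a description and no measurement of binding. Promoters were matched for 5 of the 7 members looked up, which were all but Cd74. That of H2-DMa, matched but not shown, held a Y box and neither AACNGATG, TGACGTCA nor GAAANNGAA.

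H2-DMa, H2-DMb1, H2-Ab1, H2-Aa and H2-Eb1 lie together in the MHC on chromosome 17, and the other 3 lie elsewhere (build mm10). H2-Ab1 (ENSMUSG00000073421) lies at chr17:34257689-34269419 on the plus strand, H2-Aa (ENSMUSG00000036594) at chr17:34282744-34287823 on the minus strand and H2-Eb1 (ENSMUSG00000060586) at chr17:34305867-34316674 on the plus strand. H2-DMa (ENSMUSG00000037649) lies at chr17:34119541-34139101 and H2-DMb1 (ENSMUSG00000079547) at chr17:34153072-34160230, both on the plus strand. Ctss (ENSMUSG00000038642) lies on chromosome 3, Ciita (ENSMUSG00000022504) on chromosome 16 and Cd74 (ENSMUSG00000024610) on chromosome 18. The reads were counted against a C57BL/6 genome while the mice carry g7 alleles, and the effect of this on the counts was not tested. In macrophage-like cells H2-Aa stood at 1.08, 0.984 and 1.12 UMIs per H2-Ab1 UMI in K/B.g7 at 3, 8 and 25 weeks, against 0.795, 0.985 and 1.03 in B.g7.

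The libraries held 29612970, 45002210 and 69152541 UMIs in K/B.g7 valves at 3, 8 and 25 weeks, against 15196750, 29876036 and 54850494 UMIs in B.g7. After filters 5441, 8564 and 16645 cells were used from K/B.g7 and 3652, 5482 and 8087 from B.g7. Clusters were built with the class II genes left out and named from marker genes, so that the classes below do not rest on the genes described. In the B.g7 library of 8 weeks cells with Xist, which marks an inactive X chromosome, and cells with Y-linked transcripts were far from balanced, as given with the results it touches. Pairs of libraries shared 3 to 66 cell barcodes.

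In the valve digest as a whole, the class II genes had their peak at 8 weeks in both genotypes. Summed over all cells, Cd74 stood at 118, 1351 and 144 CPM (UMIs of the gene per 1000000 UMIs) in K/B.g7 valves at 3, 8 and 25 weeks, against 146, 583 and 400 CPM in B.g7. K/B.g7 was above B.g7 at 8 weeks and below it at 3 and 25 weeks. H2-Ab1 followed the same course, at 46.0, 504 and 46.6 CPM in K/B.g7 valves, against 61.6, 212 and 117 CPM in B.g7. In these sums more cells of a type and more RNA per cell cannot be told apart. Between genotypes 0 of 8 members passed in edgeR's quasi-likelihood test over 3 ages (Benjamini-Hochberg adjusted p under 0.05, 0% of 16013 genes called, 840 at an unadjusted p under 0.05), and Cd74 had a log2 fold change of -0.23 ± 0.53 (SE). Between 8 and 3 weeks 7 of 8 members rose, where 8.1% of genes were called. Ciita rose by 2.88 ± 0.55 (adjusted p = 0.0324 in edgeR) and Cd74 by 3.00 ± 0.66 (adjusted p = 0.0466 in edgeR) on the log2 scale, and H2-DMa was the member that did not pass (2.02 ± 0.53). Between 25 and 3 weeks 0 of 8 passed (4.05% of genes called), with Cd74 at 1.05 ± 0.62.

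The level by class followed the known division between antigen-presenting cells and the rest. Dendritic-like cells held Cd74 at 21933 CPM (K/B.g7, 65 cells at 8 weeks) and 24148 CPM (K/B.g7, 21 cells at 25 weeks) in the libraries that held at least 20 of them. Macrophage-like cells ranged from 6177 to 25058 CPM and B cell-like cells from 9654 to 17561 CPM. These 3 classes overlapped, so that their order is not set beyond the spread between libraries. Monocyte or neutrophil-like cells, in the libraries with at least 20, held 2128 to 5094 CPM, below every macrophage-like value. All non-immune classes lay below that, with a maximum of 534 CPM in the endothelial-like cells of K/B.g7 at 8 weeks. T, NK or innate lymphoid-like cells, of which T and NK cells in mice are known to make little class II, held 0 to 136 CPM.

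**Figure D1:**
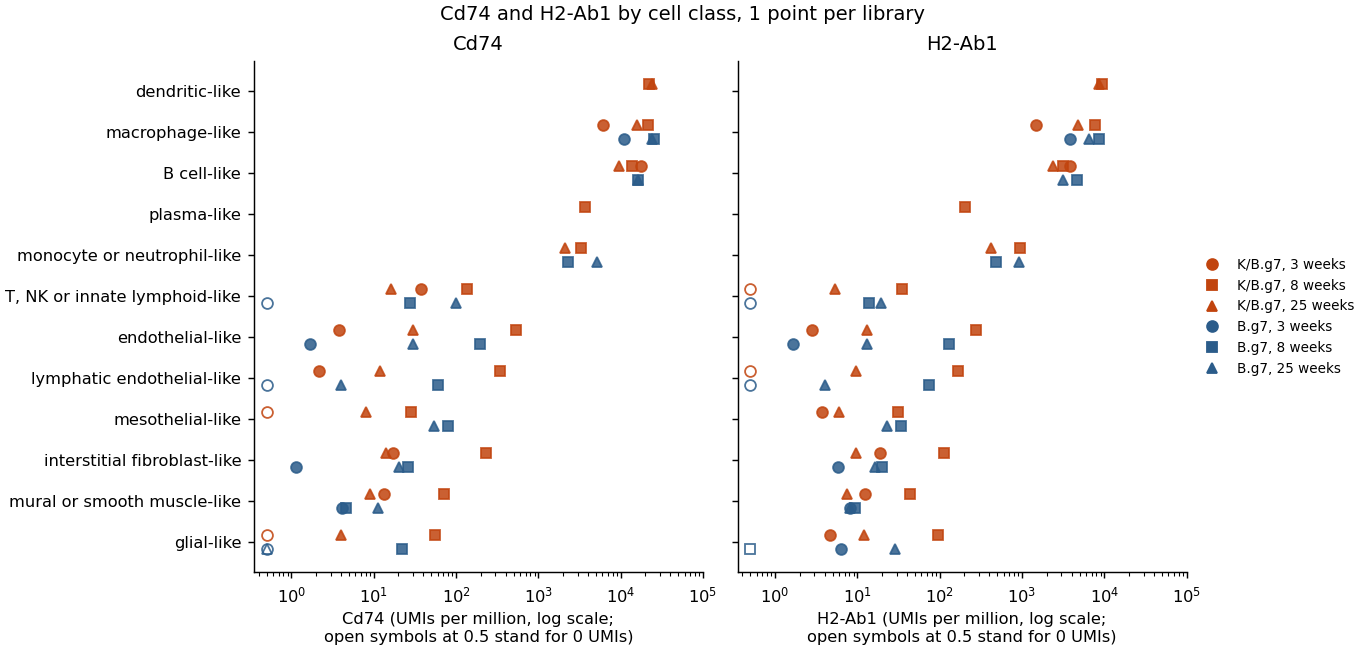
Cd74 and H2-Ab1 in CPM (log axis) for 12 cell classes, with 1 point per library that held at least 20 cells of the class, K/B.g7 in the upper and B.g7 in the lower line of each class, and open symbols for 0 UMIs. Dendritic-like, macrophage-like and B cell-like cells stand at 6177 CPM of Cd74 or above, and the fibroblast-like and endothelial-like points of both genotypes are highest at 8 weeks.

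Macrophage-like cells, few as they were, held a large share of the class II transcripts of the valve. Of the UMIs of the 4 chain genes Cd74, H2-Aa, H2-Ab1 and H2-Eb1, macrophage-like cells held 29.1%, 57.7% and 24.4% in K/B.g7 valves at 3, 8 and 25 weeks, against 44.8%, 66.3% and 45.4% in B.g7. Interstitial fibroblast-like cells, which make the matrix of the valve, held 18.4%, 14.0% and 10.9% in K/B.g7 valves and 3.49%, 4.09% and 6.16% in B.g7. At each age the fibroblast-like share was above that of B.g7 in K/B.g7 valves. Such a share also moves with the number of cells in the other classes and is no level per cell. At 25 weeks macrophage-like cells were 0.318% of cells in K/B.g7 valves, against 0.878% in B.g7. The Cd74 level in fibroblast-like cells was lower in K/B.g7 valves at that age, as given below. Dendritic-like cells held 41.0%, 15.1% and 23.6% in K/B.g7 valves (10, 65 and 21 cells), against 43.4%, 11.4% and 26.4% in B.g7 (10, 12 and 18 cells). Endothelial-like cells held 1.90% at 8 weeks in K/B.g7 valves, against 7.61% in B.g7.

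The invariant chain outnumbered the I-A beta chain in antigen-presenting cells, and in fibroblast-like cells it did so at 8 and 25 weeks but not at 3 weeks. Cd74 UMIs per H2-Ab1 UMI were 4.20, 2.81 and 3.37 in K/B.g7 macrophage-like cells and 2.85, 2.93 and 3.66 in B.g7. B cell-like cells had 4.54, 4.42 and 4.08 in K/B.g7 valves and 3.33, 3.54 and 5.07 in B.g7, where the B.g7 library of 3 weeks held 13 such cells. In interstitial fibroblast-like cells the ratio was 0.902, 2.08 and 1.46 in K/B.g7 valves and 0.197, 1.31 and 1.23 in B.g7. The fibroblast-like and macrophage-like ratios did not overlap across the 6 libraries. Dendritic-like cells, at 2.34 to 2.82 in K/B.g7 and 2.16 to 3.07 in B.g7, lay above every fibroblast-like ratio and overlapped the macrophage-like ratios. In plasma-like cells of K/B.g7 at 8 weeks (21 cells) Cd74 stood at 3667 CPM beside 202 CPM of H2-Ab1. Plasma cells are known to shut down class II.

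In interstitial fibroblast-like cells, all 8 members stood above B.g7 in K/B.g7 valves at 8 weeks, and most stood below it at 25 weeks. Cd74 stood at 17.05, 234 and 14.2 CPM in K/B.g7 valves at 3, 8 and 25 weeks (4319, 6272 and 13205 cells) and at 1.14, 25.9 and 20.2 CPM in B.g7 (3003, 3526 and 6245 cells). The mean was 88.4 ± 126 CPM in K/B.g7 valves and 15.8 ± 13.0 CPM in B.g7 (SD, n = 3). The K/B.g7 library of 8 weeks stood far above the other 5, which lay between 1.14 and 25.9 CPM and held libraries of both genotypes. With 1 library per genotype and age there is no test at a single age, and the ratio K/B.g7 over B.g7 was 14.9 at 3 weeks (exact 95% interval 8.44 to 29.2), 9.02 at 8 weeks (8.19 to 9.97) and 0.701 at 25 weeks (0.627 to 0.783). At 8 and 25 weeks the ratio turned among cells with Y-linked transcripts alone, to 0.193 and 1.65. These intervals cover counting error only.

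The I-A and I-E chains went the same way in these cells. H2-Ab1 stood at 18.9, 112 and 9.71 CPM in K/B.g7 valves and 5.80, 19.9 and 16.4 CPM in B.g7, a ratio of 3.26, 5.66 and 0.591 at 3, 8 and 25 weeks. H2-Aa stood at 8.83, 72.8 and 6.98 CPM in K/B.g7 valves and 2.09, 14.1 and 10.1 CPM in B.g7. H2-Eb1 stood at 17.2, 95.8 and 11.1 CPM in K/B.g7 valves and 5.52, 22.7 and 15.6 CPM in B.g7. Over all cells of the class, the 3 stood above B.g7 in K/B.g7 valves at 3 and 8 weeks and below it at 25 weeks. Among the cells with Y-linked transcripts and no Xist the order at 25 weeks was turned, with H2-Ab1 at 10.7 CPM in K/B.g7 valves, against 6.99 CPM in B.g7.

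The genes that load peptide were low in fibroblast-like cells. H2-DMa stood at 5.96, 14.4 and 2.93 CPM in K/B.g7 valves and 2.00, 5.90 and 3.72 CPM in B.g7. H2-DMb1 stood at 4.47, 13.2 and 1.40 CPM in K/B.g7 valves and 1.52, 3.61 and 2.43 CPM in B.g7. Both of these H2-DM chains follow the order of the chain genes. Ctss had 3, 89 and 16 UMIs in K/B.g7 valves, against 1, 7 and 6 UMIs in B.g7, which is 2.94 and 0.421 CPM at 8 weeks. The transactivator Ciita had 5, 34 and 10 UMIs in K/B.g7 valves, against 1, 3 and 10 UMIs in B.g7.

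**Figure D2:**
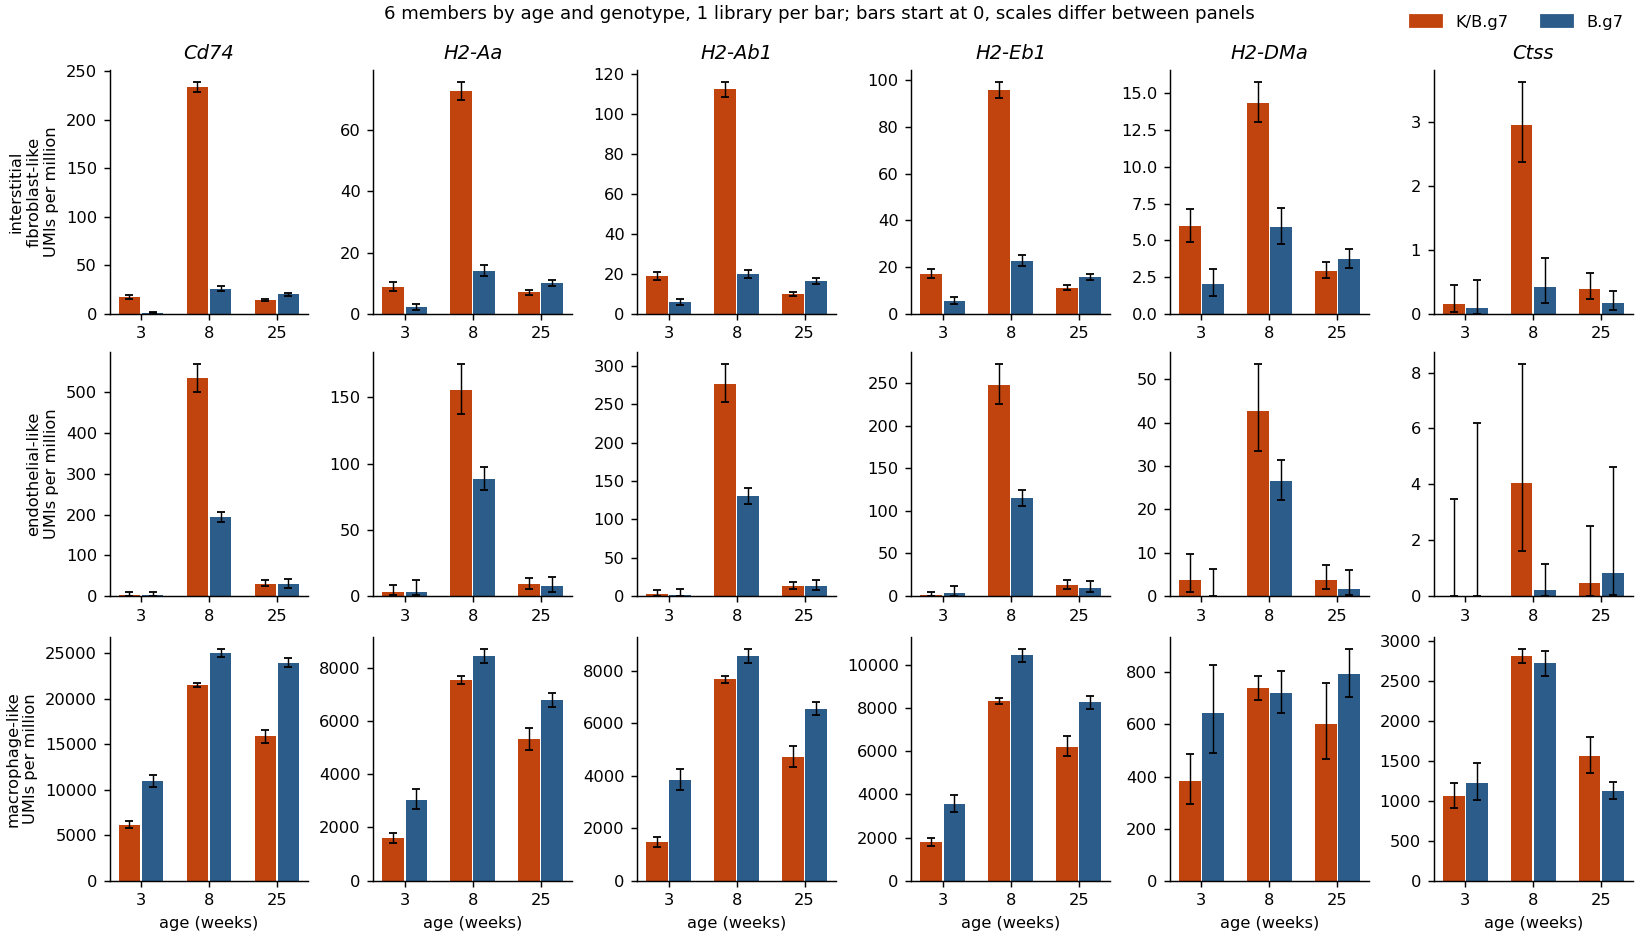
6 of the 8 members in CPM by age (weeks) in interstitial fibroblast-like, endothelial-like and macrophage-like cells, with 1 bar per library, K/B.g7 left of B.g7, and exact 95% intervals for counting error. In the fibroblast-like and endothelial-like cells all 6 are highest in K/B.g7 valves at 8 weeks, and in macrophage-like cells Cd74, H2-Aa, H2-Ab1 and H2-Eb1 are lower in K/B.g7 valves at each age.

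Over the 3 ages fitted together, no member passed between genotypes in interstitial fibroblast-like cells. In edgeR's quasi-likelihood test 0 of 7 members tested were called, where 0% of 14227 genes were called and 981 had an unadjusted p under 0.05. Ciita was under the filter on low counts. All 7 were above 0, with a median of 1.09 on the log2 scale against -0.03 over all genes tested. The log2 fold change of Cd74 was 1.92 ± 0.76 (SE, adjusted p = 0.674 in edgeR) and that of Ctss 1.88 ± 0.55 (adjusted p = 0.473 in edgeR). H2-Aa stood at 1.16 ± 0.53, H2-Ab1 at 1.09 ± 0.56 and H2-Eb1 at 0.99 ± 0.45 in the same fit. DESeq2 called 0 members as well. Without the 25-week libraries 4 of 6 members tested rose in K/B.g7 valves, Cd74 by 3.35 ± 0.25, where 11 genes in all (0.0815%) were called in edgeR. That fit left out the age at which Cd74 was lower in K/B.g7 fibroblast-like cells (log2 ratio -0.51). Its smaller standard error and its calls therefore cannot speak for agreement over the 3 ages. The B.g7 library of 3 weeks, which it kept, held 12 Cd74 UMIs in this class.

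Between 3 and 8 weeks class II genes rose in these cells. Between 8 and 3 weeks 4 of 7 members rose, where 5.21% of genes were called. Cd74 rose by 3.76 ± 0.86 (adjusted p = 0.0426), Ctss by 3.68 ± 0.75 (adjusted p = 0.0278), H2-Aa by 2.87 ± 0.62 (adjusted p = 0.0351) and H2-Eb1 by 2.31 ± 0.54 (adjusted p = 0.0450) on the log2 scale in edgeR's quasi-likelihood test. H2-Ab1 (2.29 ± 0.64), H2-DMa (1.35 ± 0.44) and H2-DMb1 (1.43 ± 0.57) did not pass. Between 25 and 3 weeks 0 of 7 passed (0.724% of genes called), with Cd74 at 1.87 ± 0.91 in the same fit. DESeq2 called 1 member between 8 and 3 weeks.

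**Figure D3:**
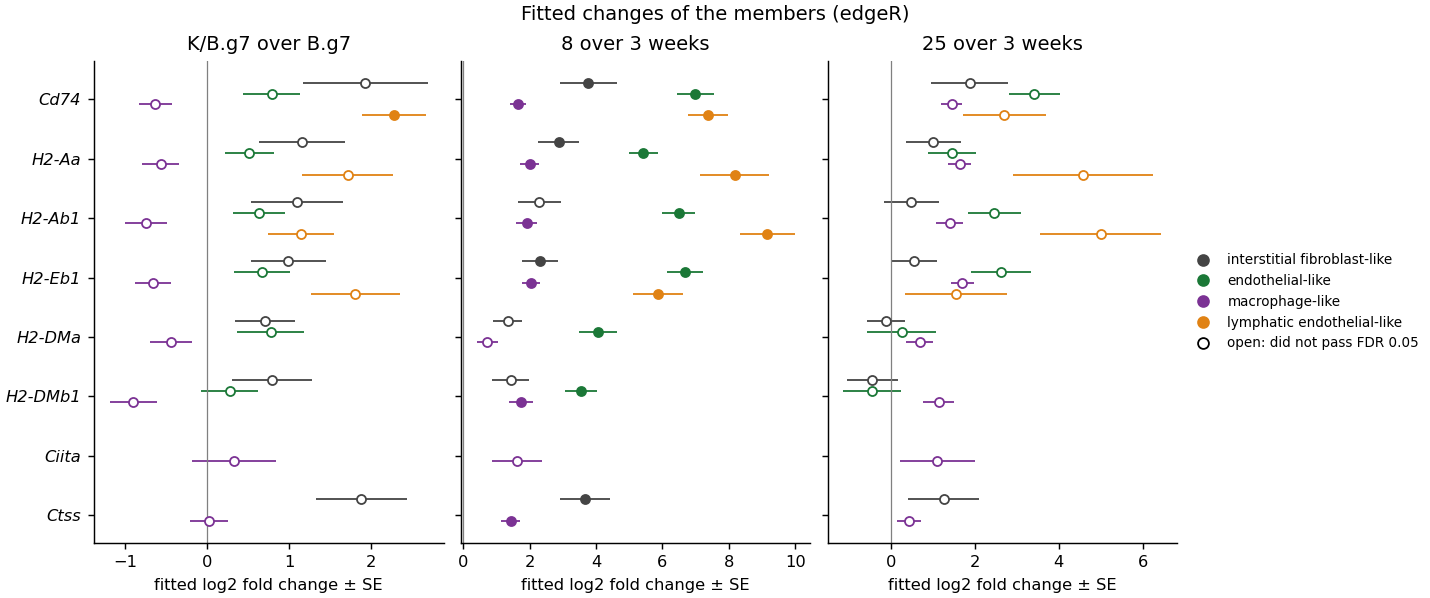
Fitted log2 fold changes of the members with standard errors, K/B.g7 over B.g7, 8 over 3 weeks and 25 over 3 weeks, in 4 cell classes, from edgeR's quasi-likelihood fits over 6 libraries. Filled points passed a Benjamini-Hochberg adjusted p of 0.05 over all genes tested, and between genotypes the 1 filled point is Cd74 in lymphatic endothelial-like cells (2.28 ± 0.39).

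The share of fibroblast-like cells in which a Cd74 UMI was detected depended on depth. With each cell thinned to 1000 UMIs, 0.926%, 7.40% and 1.07% of cells had a Cd74 UMI in K/B.g7 valves at 3, 8 and 25 weeks, against 0.137%, 1.70% and 1.09% in B.g7. The mean was 3.13% ± 3.70 in K/B.g7 valves and 0.977% ± 0.790 in B.g7 (SD, n = 3), and the difference did not pass (two-sided exact permutation test, p = 0.6; 3 against 3 libraries cannot go below 0.1). Unthinned, the shares were 1.55%, 16.7% and 2.36% in K/B.g7 valves and 0.366%, 4.37% and 3.68% in B.g7 (exact permutation p = 0.8). Ptprc, the surface marker of immune cells, had a UMI in at most 0.179% of the thinned fibroblast-like cells of any library. T, NK or innate lymphoid-like cells, of which T and NK cells of the mouse are known to hold little class II, had a Cd74 UMI in 7.87% of cells in K/B.g7 valves at 8 weeks, against 2.42% in B.g7 after the same thinning. The share in fibroblast-like cells lies within the interval of that share at 8 weeks (4.88 to 11.9% in K/B.g7 valves and 0.664 to 6.09% in B.g7).

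The levels, which weigh how many UMIs a cell holds, can be set against immune markers in the same library. In K/B.g7 at 8 weeks Cd74 in fibroblast-like cells was 1.92% of its level in immune cells, while the median of 18 immune markers was 0.264% and the highest was 2.28% (Cd53). In that library H2-Ab1 (2.63%), H2-DMb1 (3.26%), H2-DMa (3.45%) and Ciita (4.08%) stood above the highest marker. H2-Aa (1.74%), H2-Eb1 (2.13%) and Ctss stood below it, as Cd74 did. In B.g7 at that age Cd74 was at 0.253%, with a median of 0.109% and a maximum of 1.05% (Cd37). There H2-DMa, at 1.82%, was the only member above the highest marker. At 3 weeks Cd74 was at 0.197% in K/B.g7 valves, against 0.0112% in B.g7, with marker medians of 0.0230% and 0.0191%. At 25 weeks it was at 0.254% in K/B.g7 valves, against 0.212% in B.g7, with medians of 0.183% and 0.0841%. The summed level of the marker list was 8.58, 88.3 and 21.5 CPM in K/B.g7 fibroblast-like cells and 5.23, 67.8 and 13.0 CPM in B.g7, with 3, 0 and 0 of its 18 genes at 0 in K/B.g7 valves, against 3, 1 and 0 in B.g7. These markers were thus higher at 8 weeks too, in both genotypes, and their part in the class II levels was not tested. Ctss, in contrast to Cd74, was at 0.210% of its immune level in K/B.g7 valves at 8 weeks, near the marker median. Without the cells that held a Ptprc UMI the ratio of Cd74 at 8 weeks was 10.2.

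Within the class, a small set of cells with many UMIs held most of the transcripts in some libraries and not in others. In K/B.g7 at 8 weeks 71.4% of fibroblast-like cells had no UMI of the 4 chain genes, while 324 cells (5.17%) had 10 or more and together held 82.8% of these UMIs. Cells with 10 or more numbered 27 and 29 in K/B.g7 valves at 3 and 25 weeks, against 1, 37 and 57 in B.g7 at 3, 8 and 25 weeks. They held 62.1% and 32.6% of these UMIs in those K/B.g7 libraries, against 7.19%, 57.2% and 64.9% in B.g7. Cells with 1 to 2 UMIs held 48.0% in K/B.g7 at 25 weeks and 52.9% in B.g7 at 3 weeks. Of the 324 cells, 232 lay in cluster 6 and 72 in cluster 11, and 1.85% had a Ptprc UMI.

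Cluster 6 is led by Mmp3, a matrix-degrading protease, Lcn2, an iron-sequestering acute-phase protein, and the interferon-induced Iigp1 and Cxcl10. It held 507 cells of K/B.g7 at 8 weeks, against 19 of B.g7 at 8 weeks, and at most 6 cells of any other library. Its Cd74 level was 1200 CPM in K/B.g7 valves, against 938 CPM in B.g7 at 8 weeks, from 5046 UMIs in K/B.g7 valves, against 113 in B.g7. H2-Ab1 stood at 553 CPM in K/B.g7 valves, against 357 CPM in B.g7 in that cluster, and H2-Eb1 at 458 and 332 CPM. Of its cells, 84.6% had a UMI of the 4 chain genes in K/B.g7 valves, against 57.9% in B.g7. The 18 immune markers summed to 134 CPM there in K/B.g7 valves, against 108 CPM in B.g7, against 60.3 to 119 CPM in the other K/B.g7 clusters of at least 100 cells at that age, and their part was not tested.

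Cluster 11 is led by Wif1, an inhibitor of Wnt signalling, and carried class II transcripts at every age in both genotypes. Cd74 stood at 87.1, 469 and 48.8 CPM there in K/B.g7 valves and at 4.21, 54.2 and 64.4 CPM in B.g7. H2-Ab1 stood at 96.2, 257 and 42.8 CPM in K/B.g7 valves and at 24.3, 58.9 and 60.5 CPM in B.g7. Both genes were higher in K/B.g7 valves at 3 and 8 weeks and lower at 25 weeks. This cluster held 91.0%, 18.1% and 61.3% of the chain gene UMIs of the fibroblast-like class in K/B.g7 valves and 75.2%, 66.9% and 81.3% in B.g7, from 20.6%, 8.00% and 16.3% of the cells in K/B.g7 valves and 19.9%, 21.6% and 25.2% in B.g7. In K/B.g7 at 8 weeks cluster 6 held 69.1% of them in place of cluster 11. Cluster 14, led by the cartilage gene Chad, had 123 CPM of Cd74 in K/B.g7 valves, against 25.4 CPM in the B.g7 library of 8 weeks, and every other fibroblast-like cluster of K/B.g7 lay at or below 41.2 CPM at that age.

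**Figure D4:**
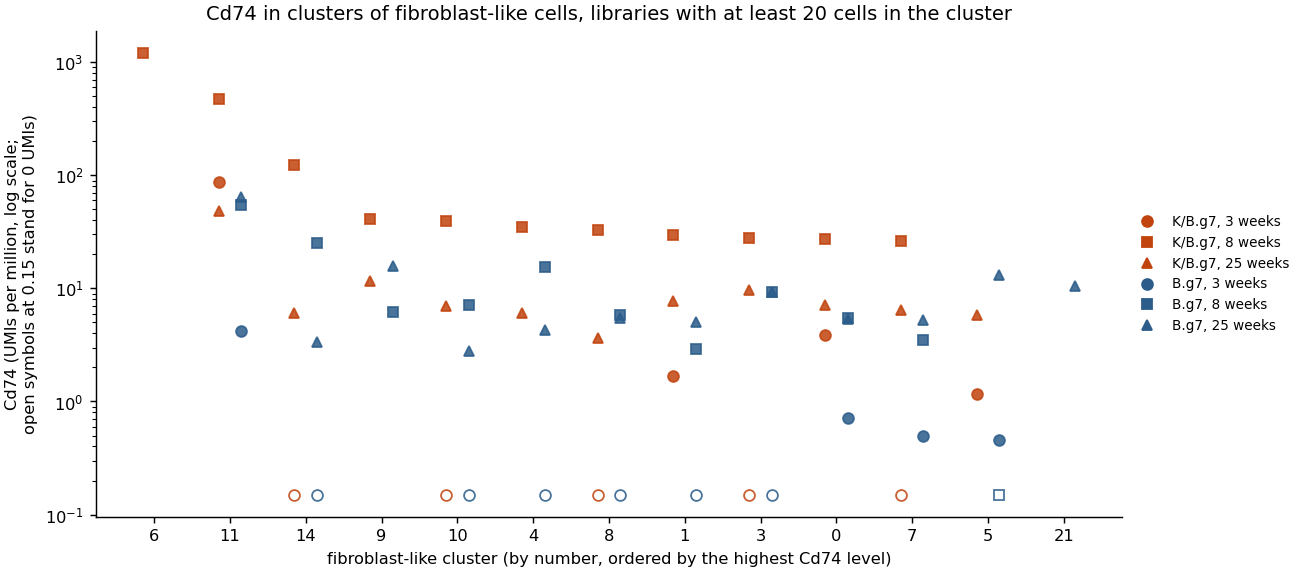
Cd74 in CPM (log axis) in the fibroblast-like clusters, with 1 point per cluster and library of at least 20 cells, K/B.g7 left of B.g7, shapes for age and open symbols for 0 UMIs. Cluster 6 stands highest, at 1200 CPM in K/B.g7 valves at 8 weeks, followed by cluster 11 of the same library at 469 CPM.

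The direction of the Cd74 difference between genotypes in fibroblast-like cells depended on whether cells with Xist or cells with Y-linked transcripts were compared, at 8 and at 25 weeks. In K/B.g7 fibroblast-like cells Cd74 stood at 357 CPM in 3332 cells with Xist and at 87.9 CPM in 1514 cells with Y-linked transcripts. In B.g7 it stood at 14.0 CPM in 3081 cells with Xist and at 454 CPM in 88 cells with Y-linked transcripts. These 88 cells are 2.50% of the class in that library and held 42.5% of its Cd74 UMIs. Of them, 9 lay in cluster 6, against 5 of the 3081 cells with Xist. In K/B.g7 valves cluster 6 held 340 of the 3332 cells with Xist and 83 of the 1514 cells with Y-linked transcripts. The part of this makeup in the Cd74 levels was not tested. At 25 weeks Cd74 stood at 8.15 CPM in Xist cells and 18.7 CPM in Y-linked cells of K/B.g7, against 25.4 CPM in Xist cells and 11.3 CPM in Y-linked cells of B.g7. The order of Xist and Y-linked cells was thus opposite in the genotypes at both ages. Endothelial-like cells had 173 CPM in 273 Xist cells and 1383 CPM in 70 Y-linked cells in K/B.g7 valves, and 95.8 CPM in 1018 Xist cells and 858 CPM in 50 Y-linked cells in B.g7. Macrophage-like cells at 8 weeks had 20854 CPM in 148 Xist cells and 25719 CPM in 19 Y-linked cells of K/B.g7, against 24722 CPM in 20 Xist cells and 24698 CPM in 17 Y-linked cells of B.g7. Animals and sex cannot be told apart here, as the number of mice is not given. The 212 cells of B.g7 at 8 weeks with Y-linked transcripts alone shared 0 barcodes with K/B.g7 at 8 weeks and at most 1 with any other library. Among cells with Xist alone the ratio of Cd74, K/B.g7 over B.g7, in fibroblast-like cells was 25.6 at 8 weeks and 0.321 at 25 weeks, and among cells with Y-linked transcripts alone it was 0.193 at 8 weeks and 1.65 at 25 weeks. In endothelial-like cells at 8 weeks it was 1.81 in Xist cells and 1.61 in Y-linked cells. Fitted over the 3 ages, the log2 fold change of Cd74 in Y-linked fibroblast-like cells was 0.01 ± 0.50 (adjusted p = 0.9996 in edgeR).

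**Figure D5:**
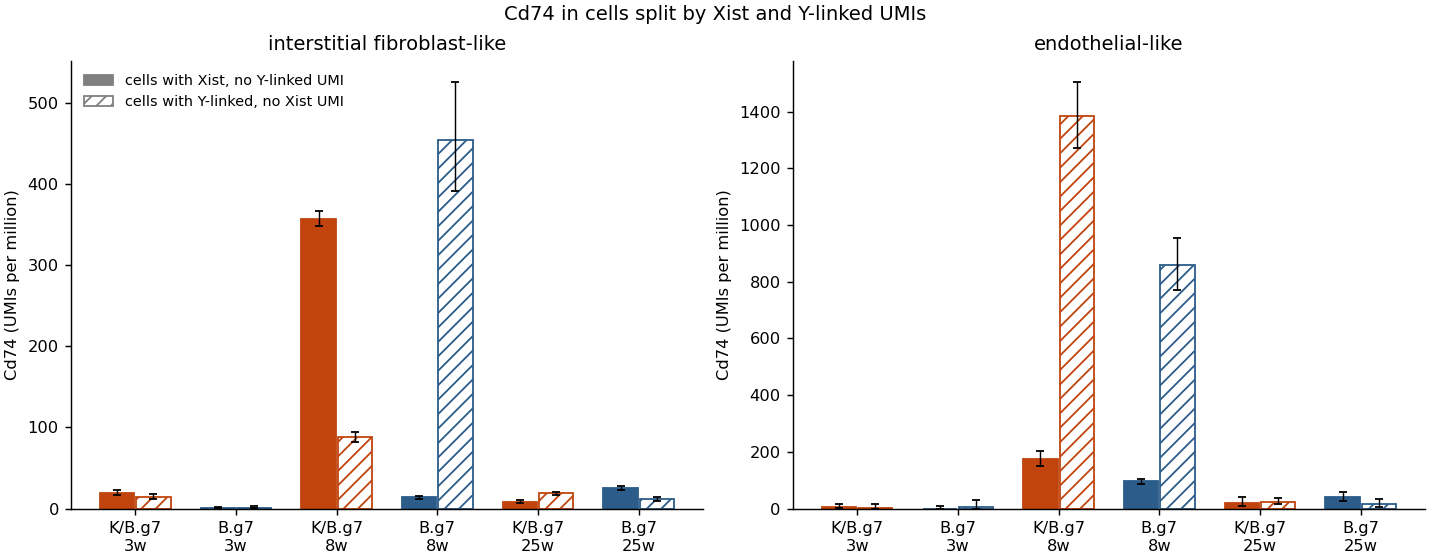
Cd74 in CPM in cells with Xist alone (filled bars) and cells with Y-linked transcripts alone (hatched bars) of the fibroblast-like and endothelial-like classes, by library, with exact 95% intervals for counting error. In the fibroblast-like cells of 8 weeks the Xist cells are higher in K/B.g7 valves (357 CPM) and the Y-linked cells are higher in B.g7 (454 CPM).

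Endothelial-like cells, which line the valve, had few class II transcripts at 3 weeks and their highest level at 8 weeks in both genotypes. Cd74 stood at 3.75, 534 and 30.2 CPM in K/B.g7 valves at 3, 8 and 25 weeks (246, 468 and 789 cells) and at 1.68, 194 and 29.8 CPM in B.g7 (109, 1195 and 197 cells). H2-Ab1 stood at 2.81, 277 and 13.1 CPM in K/B.g7 valves and 1.68, 130.5 and 13.2 CPM in B.g7. The levels of 3 weeks rest on 4 and 1 UMIs of Cd74 and 3 and 1 UMIs of H2-Ab1 in K/B.g7 valves and B.g7. At 8 weeks the ratio K/B.g7 over B.g7 was 2.75 for Cd74 (exact 95% interval 2.51 to 3.02) and 2.12 for H2-Ab1 (1.88 to 2.39), and at 25 weeks it was 1.01 for Cd74 (0.667 to 1.57).

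The transactivator was also seen in this class, and cathepsin S hardly. Ciita had 0, 10 and 1 UMIs in K/B.g7 valves, against 0, 11 and 0 in B.g7, so that 21 of the 22 UMIs came from 8 weeks. Ctss had 0, 7 and 1 UMIs in K/B.g7 valves, against 0, 1 and 1 in B.g7. At 8 weeks Cd74 in endothelial-like cells was at 4.39% of its immune level in K/B.g7 valves, against 1.89% in B.g7, while the median immune marker was at 0.437% and 0.124% and 1 and 2 of the 18 markers were at 0. The highest marker, Cd3e, was at 6.67% in K/B.g7 valves, against 5.64% in B.g7. H2-DMa (10.2% and 8.18%), H2-DMb1 (11.8% and 8.89%) and Ciita (20.9% and 10.4%) stood above it in K/B.g7 valves and B.g7. The other members stood below it, with H2-Ab1 at 6.48% in K/B.g7 valves, against 3.88% in B.g7. The marker list summed to 8.44, 144 and 55.9 CPM in K/B.g7 valves and 10.1, 36.4 and 38.0 CPM in B.g7. The part of these markers in the result was not tested. Of the cells thinned to 1000 UMIs, 19.95% had a Cd74 UMI in K/B.g7 valves at 8 weeks, against 3.86% in B.g7.

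In this class all 6 members tested rose between 8 and 3 weeks, where 1.14% of genes were called, and 0 of 6 passed between genotypes (0% of 10049 genes called, 475 at an unadjusted p under 0.05). The log2 fold change at 8 over 3 weeks was 6.99 ± 0.54 for Cd74, 6.49 ± 0.49 for H2-Ab1 and 6.69 ± 0.54 for H2-Eb1 (adjusted p = 1.96e-04 each in edgeR's quasi-likelihood test). H2-Aa rose by 5.43 ± 0.43, H2-DMa by 4.05 ± 0.58 and H2-DMb1 by 3.55 ± 0.47 in the same fit. These sizes depend on the few UMIs of 3 weeks. Over the 6 libraries H2-DMa and H2-DMb1 had medians of 3.68 and 3.55 CPM, against maxima of 42.6 and 47.8 CPM at 8 weeks. Ciita and Ctss were under the filter on low counts. The count of 6 thus partly reflects that filter, which kept members high at 8 weeks. Between genotypes the 6 were above 0, with a median of 0.65 against 0.00 over all genes tested, and Cd74 stood at 0.79 ± 0.35 (adjusted p = 0.985 in edgeR). Between 25 and 3 weeks 0 of 6 passed (0% of genes called, 1141 at an unadjusted p under 0.05), with Cd74 at 3.42 ± 0.62, and DESeq2 called 1 member.

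Both endothelial clusters carried class II transcripts at 8 weeks. Cluster 17, led by Vwf and Emcn, had Cd74 at 570 CPM in K/B.g7 valves (411 cells) and 203 CPM in B.g7 (1164 cells) at 8 weeks. Cluster 26, led by Wnt9b and Hapln1, had 394 CPM in K/B.g7 valves (57 cells) and 32.2 CPM in B.g7 (31 cells).

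Lymphatic endothelial-like cells were the one class in which a member passed between genotypes. Cd74 stood at 2.19, 338 and 11.8 CPM in K/B.g7 valves (47, 122 and 269 cells) and at 0, 61.2 and 4.04 CPM in B.g7 (47, 56 and 122 cells). At each of the 3 ages K/B.g7 lay above B.g7, but the UMIs numbered 1, 211 and 11 in K/B.g7 valves, against 0, 14 and 3 in B.g7. Cd74 was 1 of 4 members called, where 0.43% of genes were called, with a log2 fold change of 2.28 ± 0.39 (adjusted p = 0.00210 in edgeR's quasi-likelihood test). H2-Eb1 (1.81 ± 0.54), H2-Aa (1.71 ± 0.55) and H2-Ab1 (1.14 ± 0.40) did not pass. With DESeq2, with predicted doublets included, or among cells with Xist alone, 0 members passed. The 18 immune markers summed to 21.9, 139 and 114 CPM in this class in K/B.g7 valves, against 22.8, 30.6 and 84.7 CPM in B.g7, with 11, 6 and 0 of them at 0 in K/B.g7 and 12, 14 and 12 in B.g7, and their part in the result was not tested. All 4 rose between 8 and 3 weeks (3.87% of genes called), from 3-week libraries with 0 or 1 UMI per member. Outside 8 weeks Cd74 was at 11.8 CPM or below, and the members not tested were under the filter on low counts. The count of 4 thus partly reflects that filter, which kept members high at 8 weeks. Between 25 and 3 weeks 0 of 4 passed (3.56%).

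In mesothelial-like cells, named from markers such as Msln and Upk3b, Cd74 went the other way. Cd74 stood at 28.8 and 8.17 CPM in K/B.g7 valves at 8 and 25 weeks (56 and 324 cells) and at 80.1 and 54.4 CPM in B.g7 (224 and 608 cells). These levels rest on 11 and 15 Cd74 UMIs in K/B.g7 valves, against 283 and 316 in B.g7. At 8 weeks H2-Aa and H2-Eb1 were lower in K/B.g7 valves too, from 4 and 2 UMIs. H2-Ab1 lay close at that age, with 12 of 382197 UMIs in K/B.g7 valves, against 119 of 3535010 in B.g7. The fitted log2 fold change over these 2 ages was -2.32 ± 0.42 (adjusted p = 0.366 in edgeR), and 0 of 5 members passed (0% of 10767 genes called, 932 at an unadjusted p under 0.05). The cells came from unlike clusters, as 563 of the B.g7 cells of 25 weeks lay in cluster 28, which held 0 K/B.g7 cells at that age. In mural or smooth muscle-like and glial-like cells every member was under the filter on low counts, with at most 55 and 11 Cd74 UMIs in a library.

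Macrophage-like cells had the class II set at a high level from 3 weeks on, and it was lower in K/B.g7 for 5 of the 6 chain and H2-DM genes at every age. Cd74 stood at 6177, 21532 and 15890 CPM in K/B.g7 valves at 3, 8 and 25 weeks (49, 205 and 53 cells) and at 10928, 25058 and 23980 CPM in B.g7 (28, 54 and 71 cells). H2-Aa stood at 1590, 7542 and 5305 CPM in K/B.g7 valves, against 3048, 8432 and 6782 CPM in B.g7. H2-Ab1 stood at 1469, 7668 and 4721 CPM in K/B.g7 valves, against 3831, 8559 and 6560 CPM in B.g7. K/B.g7 lay below B.g7 at each age, and the ranges over ages overlap. H2-DMa was the exception among the 6, at 382, 738 and 601 CPM in K/B.g7 valves, against 642, 721 and 795 CPM in B.g7.

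The protease and the transactivator did not share this order. Ctss stood at 1058, 2811 and 1557 CPM in K/B.g7 valves, against 1219, 2713 and 1120 CPM in B.g7. Ciita stood at 23.1, 42.2 and 33.8 CPM in K/B.g7 valves and 0, 40.1 and 21.7 CPM in B.g7, from few UMIs. Between genotypes 0 of 8 members passed in edgeR's quasi-likelihood test (0.0263% of 3809 genes called, which is 1 gene). Cd74 had a log2 fold change of -0.63 ± 0.20 (adjusted p = 0.816 in edgeR), H2-DMb1 of -0.90 ± 0.29, H2-Ab1 of -0.75 ± 0.25, H2-Eb1 of -0.66 ± 0.21 and H2-Aa of -0.57 ± 0.22. Ctss stood at 0.02 ± 0.23 in that fit.

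The macrophage-like class was made of unlike clusters, and within the C1q-led cluster I1 the genotypes lay close at 3 and 8 weeks. There Cd74 stood at 4490, 28566 and 16283 CPM in K/B.g7 valves (46, 67 and 48 cells) and at 4544, 28575 and 25130 CPM in B.g7 (22, 29 and 48 cells). H2-Ab1 stood at 835, 8287 and 4899 CPM in K/B.g7 valves, against 1057, 9014 and 6262 CPM in B.g7. At 8 weeks 131 of the 205 K/B.g7 cells and 19 of the 54 B.g7 cells lay in cluster I14, led by Il1b, which encodes an inflammatory cytokine, where Cd74 stood at 18353 CPM in K/B.g7 valves, against 22728 CPM in B.g7. At 3 weeks 3 of the 49 K/B.g7 cells and 6 of the 28 B.g7 cells lay in cluster I8, led by Retnla, with 19294 CPM in K/B.g7 valves, against 21250 CPM in B.g7.

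Macrophage-like cells also held more class II transcripts at 8 than at 3 weeks. Between 8 and 3 weeks 6 of 8 members rose, where 6.35% of genes were called. Cd74 rose by 1.66 ± 0.25 (adjusted p = 0.00664), H2-Eb1 by 2.03 ± 0.27 (adjusted p = 0.00362) and Ctss by 1.43 ± 0.29 (adjusted p = 0.0186) on the log2 scale in edgeR's quasi-likelihood test, and H2-DMa (0.72 ± 0.32) and Ciita (1.63 ± 0.75) did not pass. Between 25 and 3 weeks 0 of 8 passed (0% of genes called, 354 at an unadjusted p under 0.05), with Cd74 at 1.45 ± 0.25 (adjusted p = 0.0754 in edgeR). DESeq2 called 4 members in that contrast.

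The genotype effect differed between macrophage-like and fibroblast-like cells in edgeR's test, and no member passed in a limma fit of another form. In edgeR's quasi-likelihood test of the class by genotype term 7 of 8 members passed, where 0.601% of genes were called. For Cd74 the log2 fold change of K/B.g7 over B.g7 was lower by 2.48 in macrophage-like cells (the difference was -2.48 ± 0.34, adjusted p = 1.02e-09 in edgeR). Ciita was the member that did not pass (-0.85 ± 1.21). With limma on the differences between the 2 classes of each library 0 of 8 passed (0 of 12813 genes, 672 at an unadjusted p under 0.05, 5 members among them), and Cd74 had -2.83 ± 0.93. By age, the Cd74 difference was -4.72, -3.39 and -0.08 at 3, 8 and 25 weeks, so that it rests on the first 2 ages. The edgeR standard error of 0.34 is small beside this spread, so that its p-value overstates how sure the difference is. In the limma fit Cd74 had an adjusted p of 0.876. Between endothelial-like and fibroblast-like cells 0 of 6 members passed (0.0528% of genes called), with Cd74 at -0.91 ± 0.43.

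B cell-like, monocyte or neutrophil-like, and T, NK or innate lymphoid-like cells had 0 members called between genotypes (of 8, 7 and 5 tested, where 1.14%, 0.238% and 1.32% of genes were called). In B cell-like cells Cd74 stood at 17561, 13852 and 9654 CPM in K/B.g7 valves and, in libraries of at least 20 cells, at 16455 and 16021 CPM in B.g7 at 8 and 25 weeks. K/B.g7 lay below B.g7 at both of these ages. In T, NK or innate lymphoid-like cells 0 of 5 members passed between 8 and 3 weeks (2.55% of genes called) and 0 of 5 between 25 and 3 weeks (6.68%). Ciita reached its highest level in B cell-like cells, at 125 CPM in K/B.g7 valves, against 122 CPM in B.g7 at 8 weeks.

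No other gene tested of the wider class II pathway passed between genotypes in fibroblast-like or endothelial-like cells. Of a list of 32 other genes, 28 were in the tables, and 21 were tested in fibroblast-like cells, where 0 passed between genotypes. The smallest p was that of Cd80, a costimulatory ligand of T cells, with a log2 fold change of 1.77 ± 0.44 (adjusted p = 0.361 in edgeR). In endothelial-like cells 0 of 20 passed between genotypes. In the sum over all cells Ifng, the gene of interferon gamma itself, rose by 7.54 ± 0.50 on the log2 scale between 8 and 3 weeks (adjusted p = 0.00210 in edgeR) and by 6.10 ± 0.51 between 25 and 3 weeks (adjusted p = 0.00280 in edgeR), where 0 of 8 members passed. The genes of X and Y box factors that were tested, such as Rfx5, Rfxap and Rfxank, did not pass in fibroblast-like, endothelial-like or macrophage-like cells.

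The genes whose pattern was most like the members differed between the whole valve and its fibroblasts. Likeness is Pearson's r of log2(CPM + 1) with the mean of the 4 chain genes, given as a description, since the points share libraries and cell classes. Across 62 class-by-library sums the highest were Wfdc17 (r = 0.919), Ly86 (0.906), Cd86 (0.903), Btk (0.898), Ncf1 (0.897), Cd83 (0.893), Gm6377 (0.893) and Spi1 (0.890), most of them known from myeloid cells and B cells. Across 64 sums of fibroblast-like clusters they were Vcam1 (r = 0.727), H2-Q7 (0.723), Iigp1 (0.709), Pcgf5 (0.691), H2-Q6 (0.689), Impact (0.678), Samd9l (0.673) and Tap2 (0.668). Vcam1 is an adhesion molecule, H2-Q6 and H2-Q7 are class I genes with near-identical copies between which reads may be split, and Tap2 is a chain of the peptide pump of class I.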

How the data were processed

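Single cells of digested mitral valves were sorted live and sequenced by the droplet-based 3′ method of 10x Genomics, per the labels' protocols. The submitters' processing notes name Cell Ranger 3.1.0 and mm10, and the annotation's version is unstated there. The deposited values are counts of UMIs per gene and barcode, whole numbers and not normalized, which per molecule do not depend on gene length.

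Kept barcodes had 500 UMIs or more, 300 genes or more and no more than 10% of UMIs from mitochondrial genes. The barcodes of highest Scrublet score, 0.8% per 1000 barcodes, were marked as predicted doublets and left out of the sums. Cells were clustered without the class II genes among 2000 variable genes (30 components, 15 neighbours, Leiden resolution 1.0, scanpy 1.11.5, leidenalg 0.10.2, Python 3.11.15), and clusters with Ptprc in at least 25% of cells were clustered again. Classes were named from marker lists with at least 3 markers detected. Unnamed clusters took 129, 629 and 156 K/B.g7 cells of 3, 8 and 25 weeks, against 81, 54 and 74 B.g7 cells.

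Counts were summed per class and library and fitted on all genes with edgeR 4.0.16 (R 4.3.3; TMM, filterByExpr, quasi-likelihood F test) with genotype and age, where age is the block that pairs the libraries. Age as the labels give it is the source of the pairing. The correlation of same-age deviations at 3, 8 and 25 weeks was 0.555, 0.454 and 0.198 for fibroblast-like, 0.352, 0.276 and 0.0958 for endothelial-like and 0.388, 0.579 and 0.195 for macrophage-like cells. Ages at which a genotype held under 20 cells of a class were left out. The threshold was a Benjamini-Hochberg adjusted p of 0.05 over all genes tested, and each standard error is the fold change divided by the root of F. The fits were tested on simulated data. DESeq2 1.42.0 and limma 3.58.1 were alternatives. Ratios and shares have exact Poisson or binomial 95% intervals, which cover counting error only. The named genes are the 8 members, up to 6 of the pathway list by smallest p (part of them given) and the 8 of highest likeness. The members and lists were chosen with earlier results of these data known. The limma alternative and that of cells with Y-linked transcripts alone were chosen after seeing the data, as were the clusters described one by one, which are given without a test. The results of 1 gene of the pathway list are not reported here.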

Additional observations from a re-analysis of the deposited data

Results flagged for a closer look

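The genotype effect differed between macrophage-like and interstitial fibroblast-like cells for 7 members in edgeR's quasi-likelihood test of the class by genotype term, where 0.601% of genes were called. The log2 fold change of K/B.g7 over B.g7 in macrophage-like cells minus that in fibroblast-like cells was -2.48 for Cd74, -1.86 for Ctss, -1.79 for H2-Ab1, -1.69 for H2-Aa, -1.66 for H2-DMb1, -1.62 for H2-Eb1 and -1.12 for H2-DMa. At 3 and 8 weeks Cd74 was higher in K/B.g7 fibroblast-like cells and lower in K/B.g7 macrophage-like cells. At 25 weeks it was lower in K/B.g7 in both. By age its difference was -4.72, -3.39 and -0.08 at 3, 8 and 25 weeks, a spread that the edgeR standard error of 0.34 does not cover. At 25 weeks the difference was 0.18 for H2-Aa, 0.28 for H2-Ab1 and 0.09 for H2-Eb1. With DESeq2's size factors in the same edgeR test 7 members passed. With limma on the per-library differences 0 of 8 members and 0 of all genes passed, and 5 members and 672 of 12813 genes had an unadjusted p under 0.05. The limma fit differed from the edgeR test in its model as well as in the tool, and which of them moved the call was not tested. The direction of the Cd74 ratio in fibroblast-like cells was opposite in cells with Y-linked transcripts alone at 8 and 25 weeks.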

How the results depend on the processing

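Of 339 alternative values, 288 kept their direction and their side of the threshold, or stayed within the spread allowed. Between genotypes, fibroblast-like cells had 0 members called and 4 without the filter on low counts. Leaving out 1 age gave 0 to 4 in them, the 4 without the 25-week libraries, the age at which Cd74 was lower in K/B.g7. Lymphatic endothelial-like cells had 1 and then 0 with DESeq2, with doublets included and with Xist cells alone. Mesothelial-like cells had 3 without the filter, and T, NK or innate lymphoid-like cells 1 without the 25-week libraries. Between 8 and 3 weeks DESeq2 called 1 member in fibroblast-like and 2 in lymphatic endothelial-like cells. Between 25 and 3 weeks DESeq2 called 1 in endothelial-like and 4 in macrophage-like cells, and leaving out the 8-week libraries gave 1, 1, 4 and 2 in fibroblast-like, endothelial-like and macrophage-like cells and all cells. The limma fit called 0 of the class differences. Without the replicate block of age, edgeR called 0 members between genotypes in the 8 sums in which members were tested so, as with it. In lymphatic endothelial-like cells no member was tested without the block. The log2 fold change of Cd74 without it was 2.40 in fibroblast-like, 1.13 in endothelial-like and -0.53 in macrophage-like cells.

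The Cd74 ratio of K/B.g7 over B.g7 depended on which cells were taken. With Xist cells alone it was 25.6 at 8 weeks and 0.321 at 25 weeks in fibroblast-like cells (9.02 and 0.701 in all), 1.81 and 0.502 in endothelial-like cells (2.75 and 1.01), and 0.694 and 0.615 at 3 and 25 weeks in macrophage-like cells (0.565 and 0.663). With Y-linked cells alone, an alternative chosen after seeing the data, fibroblast-like cells gave 0.193 and 1.65 at 8 and 25 weeks, and it was 1.61 and 1.60 in endothelial-like cells, and 0.648, 1.04 and 0.621 at 3, 8 and 25 weeks in macrophage-like cells, and it thus turned in fibroblast-like cells at both ages and in macrophage-like cells at 8 weeks. The fitted log2 fold change in these fibroblast-like cells was -0.10 for H2-Aa and -0.12 for H2-Eb1, and the median Cd74 level of B cell-like cells was 12027 CPM. Without Ptprc cells the ratio was 10.2 in fibroblast-like cells at 8 weeks and 0.891 in endothelial-like cells at 25 weeks, where it was 0.925 with doublets and 0.984 from 1000 UMIs per cell. At 3 weeks in macrophage-like cells it was 0.673 with doublets and 0.650 with class II genes in the clustering. Cd74 in K/B.g7 fibroblast-like cells at 8 weeks was 2.81% of the immune level in Xist cells and 0.863% in Y-linked cells. The cause of these changes was not tested, and few UMIs at 3 weeks limit the endothelial-like folds.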

Other observations

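Neuron-like cells numbered 62 in K/B.g7 valves, against 29 in B.g7 at 3 weeks, and at most 4 in any other library. They held 4 UMIs of Cd74, H2-Aa, H2-Ab1 and H2-Eb1 together in K/B.g7 valves, against 1 in B.g7 at 3 weeks. Melanocyte-like cells numbered at most 22 in any library and mast-like cells at most 4, and either class held at most 2 UMIs of these 4 genes in any library.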
